A study of Homo sapiens with 8 samples.

Results

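The 9 genes LMNB1, LMNB2, LMNA, LBR, HMGB1, HMGB2, HMGB3, GLB1 and EZH2 are nuclear lamina, chromatin and lysosomal genes. The RNA or protein of several of them, but not of all, is commonly read as a marker of cellular senescence. They were taken by their symbols from the 26364 genes of the count file, where all 9 were found, and all 9 were among the 14201 genes with enough counts to be tested. The RNA came from 2 stable clones of LN229, a human glioblastoma cell line. Both clones carry a pcDNA3.1 plasmid that encodes Survivin fused to eGFP and were obtained as single clones resistant to G418. In clone D6 (Surv-GFP) the nuclear export sequence (NES) of Survivin is functional and the fusion protein is mainly cytoplasmic, and in clone L2 (SurvNESmut-GFP) the NES is mutated and the protein is mainly nuclear. Each clone was either untreated or exposed to 50 µM temozolomide (TMZ), a DNA-alkylating drug, for 48 h, with 2 libraries per group lettered a and b. Since each construct is represented by 1 clone, a clone difference and a construct difference cannot be told apart, and parental LN229 cells were not analysed here.

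The nuclear lamina is a protein mesh beneath the inner nuclear membrane, made of the B-type lamins LMNB1 and LMNB2 and the A-type lamins, which are splice products of LMNA. LBR, the lamin B receptor, is an inner nuclear membrane protein that tethers heterochromatin to this mesh. HMGB1, HMGB2 and HMGB3 are abundant DNA-bending chromatin proteins, and HMGB1 also acts as an alarm signal once it is outside the cell. EZH2 is the catalytic subunit of Polycomb repressive complex 2, which methylates histone H3, and GLB1 encodes the lysosomal β-galactosidase behind the staining that is widely used to detect senescent cells. In many senescent cells LMNB1, LBR, HMGB2 and EZH2 are known to be expressed at a lower level, and β-galactosidase activity to be higher.

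Gene counts summed to between 15826923 and 18861603 reads in a library, so that each of the 9 genes had 499 or more reads in every library. The RNA levels are given in CPM, read counts scaled to a common library size after TMM normalization. Fold changes are on the log2 scale. Their standard error (SE) is the absolute log2 fold change divided by the square root of F in edgeR's quasi-likelihood F test. Adjusted p-values are from the Benjamini-Hochberg procedure over all 14201 genes, and a gene was called at an adjusted p of 0.05. The study describes its RNA-seq data as independent biological replicates that were each run in technical duplicate, and the sources used here do not say which of these the letters mark, so the p-values measure the spread between letters, whichever that is. The common biological coefficient of variation was 4.09%. All 4 groups shared the same estimate of the spread for a gene. Libraries a and b differed most in TMZ-exposed SurvNESmut-GFP cells, with a chi-square against sampling noise of 5.54 per degree of freedom. The other groups had 2.16 to 2.58. The glioblastoma line markers NES (nestin), VIM and CD44 reached at least 524 CPM in every library, whereas GFAP stayed at or below 0.92 CPM, and none of the leukocyte, endothelial and epithelial markers reached 1 CPM. Of the neuron markers, SYP had 1.38 to 3.33 CPM and RBFOX3 at most 0.054 CPM. BIRC5, which encodes Survivin and whose reads mix the transgene with the endogenous gene, had a mean of 1133 CPM in untreated and 1984 CPM in TMZ-exposed Surv-GFP cells, against 411 and 258 CPM in SurvNESmut-GFP cells.

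Upon TMZ, 7 of the 9 genes fell in Surv-GFP cells and 7 fell in SurvNESmut-GFP cells. LMNB1 and HMGB3 had the largest falls in both clones. In Surv-GFP cells LMNB1, LMNB2, LBR, HMGB1, HMGB2, HMGB3 and GLB1 were lower, and LMNA and EZH2 were higher. In this clone 28.9% of all tested genes were called lower and 30.1% higher. In SurvNESmut-GFP cells LMNA was among the genes that fell, GLB1 and EZH2 were not called, and 19.1% of all tested genes were lower and 18.6% higher. Over the 9 genes the log2 fold changes had a median of -0.63 in the first and -0.33 in the second clone, with medians of 0 and 0.0035 over all tested genes. A fall of at least 2-fold was called for LMNB1, HMGB2 and HMGB3 in Surv-GFP cells, where 5.29% of all tested genes passed this rule in the lower and 5.18% in the higher direction. In SurvNESmut-GFP cells it was called for HMGB3 alone among the 9 genes, with 1.76% of all tested genes lower and 2.37% higher by the same rule.

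**Figure D1:**
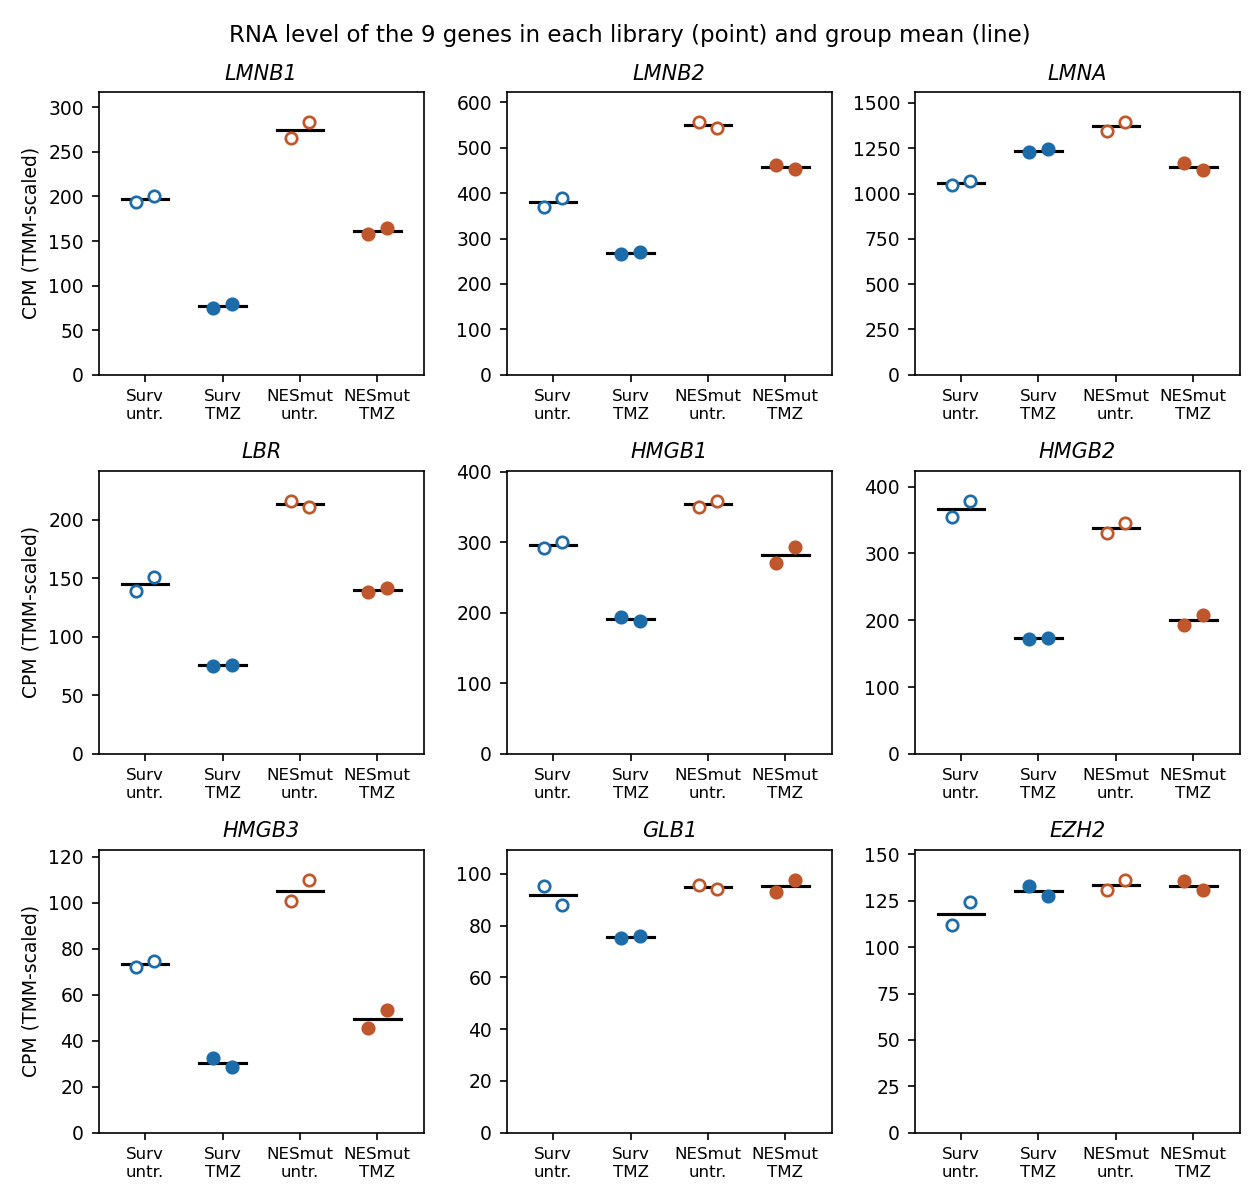
RNA level in TMM-scaled CPM (vertical axis, linear from 0) of each of the 9 genes in the 8 libraries, with open points for untreated, filled points for TMZ-exposed libraries and a line at each group mean (n = 2). LMNB1 lies at 74.4 and 78.9 CPM in TMZ-exposed Surv-GFP cells, below all other libraries, whereas the EZH2 points of the 4 groups lie between 112 and 136 CPM.

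LMNB1, the B-type lamin most often used as a senescence marker, had 194 and 201 CPM in the untreated Surv-GFP libraries and 74.4 and 78.9 CPM after TMZ. The SurvNESmut-GFP libraries had 265 and 283 CPM without and 158 and 165 CPM with TMZ. All 4 groups were separate from each other, with TMZ-exposed Surv-GFP cells lowest and untreated SurvNESmut-GFP cells highest. LMNB1 fell by 1.36 ± 0.055 (SE) on the log2 scale in Surv-GFP cells, a 2.57-fold lower level (adjusted p = 3.72e-12). The fall in SurvNESmut-GFP cells was to a 1.70-fold lower level (log2 fold change -0.77 ± 0.052 SE, adjusted p = 1.10e-08).

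LMNB2, the other B-type lamin, had 370 and 389 CPM in untreated and 265 and 270 CPM in TMZ-exposed Surv-GFP cells. Its levels in SurvNESmut-GFP libraries were 556 and 543 CPM without and 462 and 453 CPM with TMZ. The groups did not overlap, and both groups of SurvNESmut-GFP cells lay above both groups of Surv-GFP cells. The fall upon TMZ was 1.42-fold in Surv-GFP (log2 fold change -0.51 ± 0.047 SE, adjusted p = 1.14e-07) and 1.20-fold in SurvNESmut-GFP cells (-0.26 ± 0.046 SE, adjusted p = 0.000282), smaller than that of LMNB1 in each clone.

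LMNA, the source of lamins A and C, moved in opposite directions in the clones. It had 1046 and 1068 CPM in untreated and 1229 and 1244 CPM in TMZ-exposed Surv-GFP cells. The other clone had 1347 and 1393 CPM without and 1166 and 1131 CPM with TMZ. The 4 groups did not overlap, and the TMZ-exposed groups lay between the untreated groups. LMNA rose 1.17-fold in Surv-GFP cells (log2 fold change 0.23 ± 0.043 SE, adjusted p = 0.000246) and was 1.19-fold lower in SurvNESmut-GFP cells (-0.25 ± 0.043 SE, adjusted p = 0.000191).

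LBR had 139 and 151 CPM in untreated and 75.3 and 75.9 CPM in TMZ-exposed Surv-GFP cells, and in SurvNESmut-GFP cells 216 and 211 CPM without and 139 and 142 CPM with TMZ. The level of TMZ-exposed SurvNESmut-GFP cells overlapped that of untreated Surv-GFP cells, and the other groups were separate. LBR was 1.92-fold lower upon TMZ in Surv-GFP (log2 fold change -0.94 ± 0.053 SE, adjusted p = 2.33e-10) and 1.52-fold lower in SurvNESmut-GFP cells (-0.61 ± 0.050 SE, adjusted p = 1.02e-07).

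HMGB1 had 292 and 300.1 CPM in untreated and 195 and 189 CPM in TMZ-exposed Surv-GFP cells, and in SurvNESmut-GFP cells 351 and 358 CPM without and 271 and 294 CPM with TMZ. The latter overlapped the untreated Surv-GFP libraries. HMGB1 was 1.54-fold lower upon TMZ in Surv-GFP (log2 fold change -0.63 ± 0.051 SE, adjusted p = 2.37e-08) and 1.26-fold lower in SurvNESmut-GFP cells (-0.33 ± 0.051 SE, adjusted p = 8.01e-05). It had the smallest fall of the 3 HMGB genes in each clone.

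HMGB2, whose loss from chromatin is a known early feature of senescence, had 354 and 378 CPM in untreated and 173 and 174 CPM in TMZ-exposed Surv-GFP cells. The SurvNESmut-GFP libraries held 330.2 and 345 CPM without and 193 and 209 CPM with TMZ. Both TMZ-exposed groups lay far below both untreated groups, and untreated Surv-GFP cells had the highest level, unlike for the other genes that fell. HMGB2 was 2.12-fold lower upon TMZ in Surv-GFP (log2 fold change -1.08 ± 0.054 SE, adjusted p = 4.79e-11) and 1.68-fold lower in SurvNESmut-GFP cells (-0.75 ± 0.054 SE, adjusted p = 1.75e-08).

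HMGB3, the least abundant of the 3 per length, had 71.9 and 74.7 CPM in untreated and 32.4 and 28.6 CPM in TMZ-exposed Surv-GFP cells. Clone SurvNESmut-GFP had 101 and 110 CPM without and 45.7 and 53.5 CPM with TMZ. The 4 groups did not overlap. HMGB3 was 2.40-fold lower upon TMZ in Surv-GFP (log2 fold change -1.26 ± 0.080 SE, adjusted p = 9.54e-10) and 2.12-fold lower in SurvNESmut-GFP cells (-1.08 ± 0.074 SE, adjusted p = 1.08e-08). The GENCODE v29 annotation names 48 pseudogenes of HMGB1 and 29 of HMGB3, and the sources used here do not say how reads shared with such copies were counted, so the HMGB levels are uncertain to that extent.

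GLB1 had 95.4 and 88.1 CPM in untreated and 75.4 and 75.9 CPM in TMZ-exposed Surv-GFP cells, and in SurvNESmut-GFP cells 95.9 and 94.2 CPM without and 93.1 and 97.5 CPM with TMZ. TMZ-exposed Surv-GFP cells were below the other 3 groups, which overlapped each other. GLB1 fell by 17.6% in Surv-GFP cells (log2 fold change -0.28 ± 0.054 SE, adjusted p = 0.00031). In SurvNESmut-GFP cells the log2 fold change was 0.0035 ± 0.053 (SE, adjusted p = 0.968). GLB1 RNA was not called higher upon TMZ in either clone. Of the GLB1 exons in GENCODE v29, 3.04% of the bases are shared with TMPPE, which had 50 to 73 counts per library.

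EZH2 had 112 and 124 CPM in untreated and 133 and 127 CPM in TMZ-exposed Surv-GFP cells, and in SurvNESmut-GFP cells 131 and 136 CPM without and 136 and 131 CPM with TMZ. The 2 untreated Surv-GFP libraries were the lowest, and the other 3 groups overlapped. EZH2 was 10.3% higher upon TMZ in Surv-GFP cells (log2 fold change 0.14 ± 0.056 SE, adjusted p = 0.04), a call that was lost in 11 of 17 alternative settings, for instance at an adjusted p of 0.41 without the untreated Surv-GFP library a. In SurvNESmut-GFP cells the log2 fold change was -0.0029 ± 0.056 (SE, adjusted p = 0.975). EZH2 was not called lower in either clone.

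**Figure D2:**
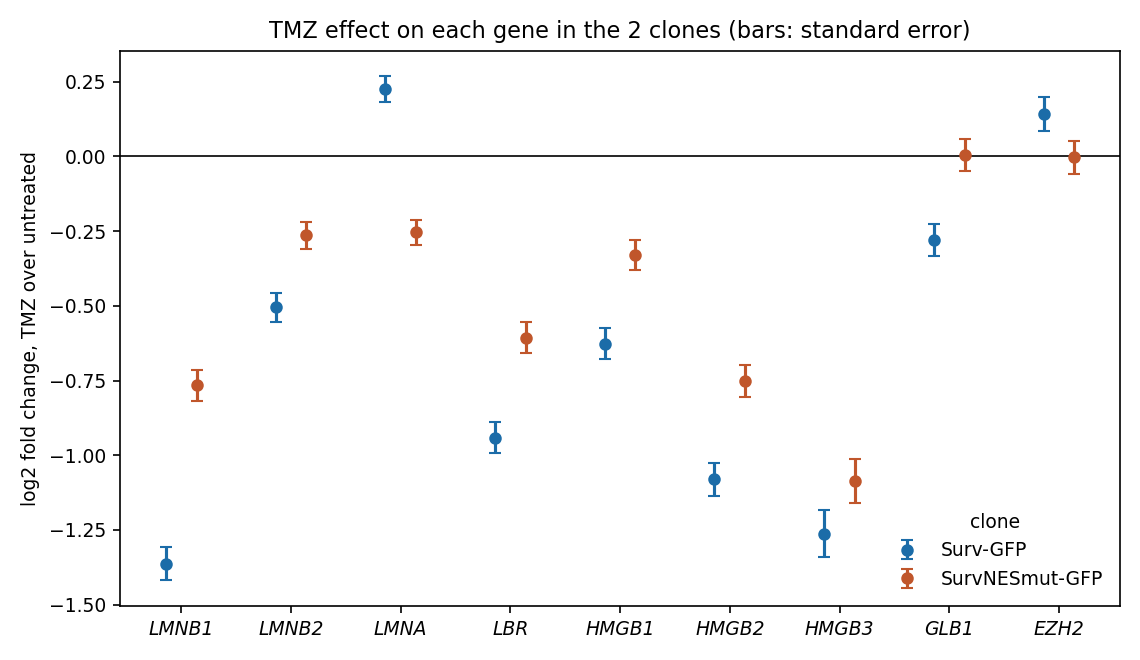
Log2 fold change upon TMZ (vertical axis, TMZ over untreated) of the 9 genes in Surv-GFP and SurvNESmut-GFP cells, with the standard error derived from edgeR's F test as bars (n = 2 libraries per group). The points of LMNB1 are farthest apart among the genes that fell, at -1.36 and -0.77, and those of LMNA lie on opposite sides of 0, at 0.23 and -0.25.

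Whether the TMZ effect depended on the clone was tested with the interaction term, the log2 fold change in SurvNESmut-GFP minus that in Surv-GFP cells. LMNB1, LMNB2, LBR, HMGB1, HMGB2 and GLB1 had a larger value in SurvNESmut-GFP cells, which for all 6 means a smaller fall or none, and LMNA had a smaller value. Of all tested genes 16.6% had a larger and 20.2% a smaller value. The difference was 0.60 ± 0.076 (SE, adjusted p = 1.37e-05) for LMNB1 and -0.48 ± 0.060 (SE, adjusted p = 1.29e-05) for LMNA. It was 0.33 ± 0.073 (SE, adjusted p = 0.00187) for LBR, 0.33 ± 0.075 (SE, adjusted p = 0.00265) for HMGB2 and 0.30 ± 0.072 (SE, adjusted p = 0.00398) for HMGB1. For GLB1 it was 0.28 ± 0.076 (SE, adjusted p = 0.00801) and for LMNB2 0.24 ± 0.066 (SE, adjusted p = 0.00903). These last 2 calls rested on single libraries, with an adjusted p of 0.0662 for GLB1 without the untreated Surv-GFP library a and of 0.0653 for LMNB2 without the untreated Surv-GFP library b. HMGB3 differed by 0.18 ± 0.11 (SE, adjusted p = 0.225) and EZH2 by -0.14 ± 0.079 (SE, adjusted p = 0.172), and without the TMZ-exposed SurvNESmut-GFP library a HMGB3 was called at 0.29 (adjusted p = 0.0243).

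Within a library, the ratio of the counts of 2 genes does not depend on the scaling between libraries. The ratio of LMNB1 to LMNA counts was 0.185 and 0.188 in untreated and 0.0605 and 0.0634 in TMZ-exposed Surv-GFP cells, a mean 3.01 times lower. For SurvNESmut-GFP the values were 0.197 and 0.203 without and 0.135 and 0.145 with TMZ, a mean 1.42 times lower. The untreated clones thus lay close to each other and the TMZ-exposed clones did not. The ratio of LMNB2 to LMNA was 0.354 and 0.364 in untreated and 0.216 and 0.217 in TMZ-exposed Surv-GFP cells, whereas the SurvNESmut-GFP libraries overlapped, with 0.413 and 0.390 without and 0.396 and 0.400 with TMZ. The mean ratio of HMGB2 to HMGB1 went from 1.24 ± 0.032 (SD, n = 2) to 0.903 ± 0.024 (SD, n = 2) in Surv-GFP and from 0.953 ± 0.016 (SD, n = 2) to 0.711 ± 0.0018 (SD, n = 2) in SurvNESmut-GFP cells, 1.37 and 1.34 times lower. EZH2 exceeded its paralog EZH1 by a mean ratio of 3.30 without and 3.40 with TMZ in Surv-GFP and of 3.28 and 3.07 in SurvNESmut-GFP cells, and the libraries of Surv-GFP cells overlapped. With 2 against 2 libraries an exact permutation test, two-sided, cannot give a p below 0.333, and no model over all 8 libraries was fitted to the ratios, which are given as values only.

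**Figure D3:**
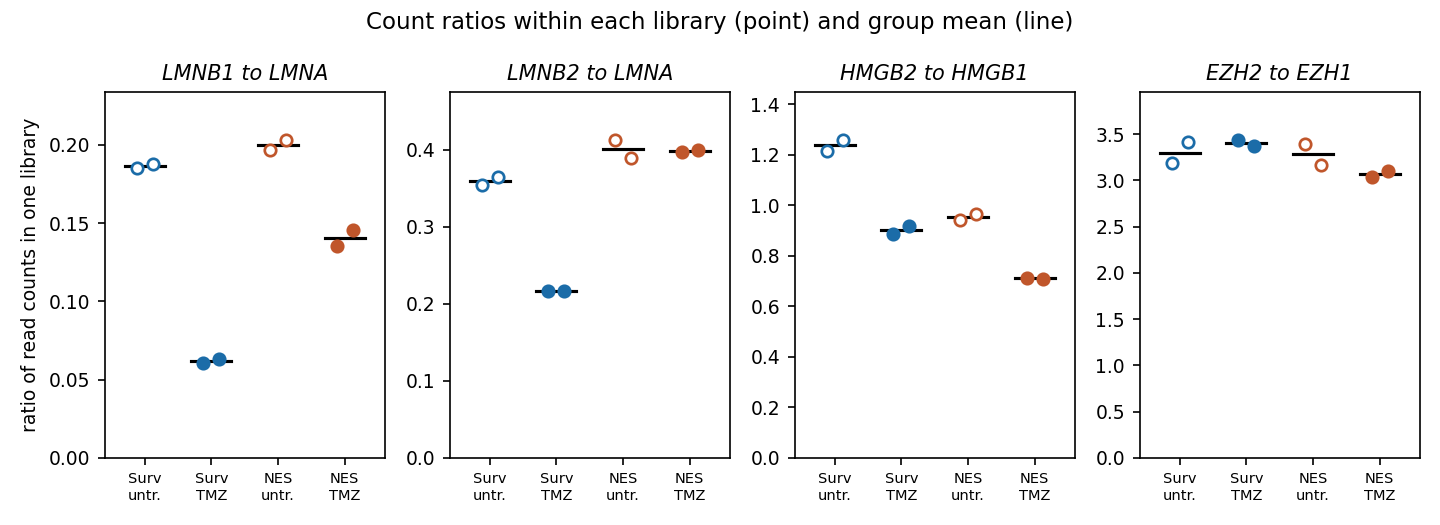
Ratio of the read counts of 2 genes in the same library (vertical axes, linear from 0), with open points for untreated, filled points for TMZ-exposed libraries and a line at each group mean (n = 2). The ratio of LMNB1 to LMNA is 0.0605 and 0.0634 in TMZ-exposed Surv-GFP cells and 0.135 or more in the other libraries.

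The levels of untreated clones were compared next. LMNB1, LMNB2, LMNA, LBR, HMGB1, HMGB3 and EZH2 were higher in untreated SurvNESmut-GFP than untreated Surv-GFP cells, and none of the 9 genes was called lower, where 34.7% of all tested genes were higher and 29.4% lower. The largest differences were those of LBR, at 0.56 ± 0.050 (SE, adjusted p = 5.54e-08) on the log2 scale, LMNB2, at 0.53 ± 0.047 (SE, adjusted p = 3.93e-08), and HMGB3, at 0.52 ± 0.070 (SE, adjusted p = 6.33e-06). LMNB1 was 0.48 ± 0.051 (SE, adjusted p = 5.25e-07) higher, LMNA 0.37 ± 0.043 (SE, adjusted p = 9.96e-07), HMGB1 0.26 ± 0.050 (SE, adjusted p = 0.000257) and EZH2 0.18 ± 0.056 (SE, adjusted p = 0.0115). HMGB2 differed by -0.12 ± 0.052 (SE, adjusted p = 0.0617), would be lower at an unadjusted threshold of 0.05, and was called lower in 12 of 17 alternative settings, DESeq2 among them, while GLB1 differed by 0.050 ± 0.053 (SE, adjusted p = 0.422). The EZH2 call was lost in 5 settings, with an adjusted p of up to 0.197 without the untreated Surv-GFP library a.

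With TMZ, LMNB1, LMNB2, LBR, HMGB1, HMGB2, HMGB3 and GLB1 were higher in SurvNESmut-GFP cells than in those of the other clone and LMNA was lower. Of all tested genes 34.5% were higher and 34.7% lower. LMNB1 was 2.10-fold higher (log2 fold change 1.07 ± 0.056 SE, adjusted p = 5.09e-11) and LBR 1.85-fold higher (0.89 ± 0.053 SE, adjusted p = 3.10e-10). LMNB2 followed at 0.77 ± 0.047 (SE, adjusted p = 3.80e-10), HMGB3 at 0.70 ± 0.084 (SE, adjusted p = 1.49e-06), HMGB1 at 0.56 ± 0.051 (SE, adjusted p = 6.39e-08), GLB1 at 0.33 ± 0.054 (SE, adjusted p = 4.27e-05) and HMGB2 at 0.21 ± 0.054 (SE, adjusted p = 0.00233). The call of HMGB2 was lost without the TMZ-exposed SurvNESmut-GFP library b (adjusted p = 0.06). LMNA was lower by -0.11 ± 0.043 (SE, adjusted p = 0.0363), a call lost in 3 of 17 settings, among them the one without the TMZ-exposed Surv-GFP library b (adjusted p = 0.136). EZH2 differed by 0.032 ± 0.056 (SE, adjusted p = 0.626).

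Levels of different genes were set side by side as reads per kilobase of merged GENCODE v29 exons, scaled to library size (RPKM). LMNA was the most abundant of the 9 transcripts in each group, at 255 to 318 RPKM over the group means. HMGB2 was next in both untreated groups, at 194 RPKM in Surv-GFP and 172 RPKM in SurvNESmut-GFP cells. HMGB3 was the least abundant in each group, from 8.17 RPKM in TMZ-exposed Surv-GFP cells to 27.4 RPKM in untreated SurvNESmut-GFP cells. In TMZ-exposed Surv-GFP cells LMNB1, at 25.9 RPKM, was below EZH2, at 42.6 RPKM, while in the untreated cells of this clone it was above, at 67.5 against 39.2 RPKM. The merged exon length of HMGB1 in this annotation, 7353 bases, includes long alternative transcripts, so its 26.1 to 47.1 RPKM may be too low.

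The promoters were read for short motifs because several of the 9 genes moved together. The 250 bases before each annotated RefSeq transcription start were searched on both strands, in assembly GRCh38.p14, for the CCAAT box (CCAAT), present in 32% of 35116 such windows of all genes, for the core of the cell cycle genes homology region (TTTGAA), in 13.3%, and for an E2F-like element (TTTNNCGC), in 5.92%. The table of RefSeq windows used here matched 8 of the 9 genes, all but HMGB2. Windows of 4 genes are shown here, of LMNB1 and HMGB3, which had the largest falls, and of HMGB1 and EZH2, whose windows hold the most CCAAT boxes, and where a gene has several windows the one with the most CCAAT boxes is shown. That of EZH2 holds 4, those of HMGB1 and HMGB3 hold 3 each, and that of LMNB1 holds 1. The HMGB3 window also holds 1 TTTGAA, which overlaps no CCAAT box. Capitals mark the matches, read as ATTGG where the box is on the opposite strand, and each sequence runs from its upstream end to the base before the start.
LMNB1, chr5:126776886-126777135, plus strand: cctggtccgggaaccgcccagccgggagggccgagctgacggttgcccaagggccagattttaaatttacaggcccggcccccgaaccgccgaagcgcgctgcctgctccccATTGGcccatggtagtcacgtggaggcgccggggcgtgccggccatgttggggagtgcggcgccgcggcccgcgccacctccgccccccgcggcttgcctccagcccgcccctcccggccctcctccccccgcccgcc
HMGB1, chr13:30465937-30466186, minus strand: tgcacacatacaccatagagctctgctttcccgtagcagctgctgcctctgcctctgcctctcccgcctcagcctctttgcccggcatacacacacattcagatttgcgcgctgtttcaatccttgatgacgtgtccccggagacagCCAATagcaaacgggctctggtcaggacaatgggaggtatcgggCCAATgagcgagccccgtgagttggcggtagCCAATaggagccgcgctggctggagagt
HMGB3, chrX:150983085-150983334, plus strand: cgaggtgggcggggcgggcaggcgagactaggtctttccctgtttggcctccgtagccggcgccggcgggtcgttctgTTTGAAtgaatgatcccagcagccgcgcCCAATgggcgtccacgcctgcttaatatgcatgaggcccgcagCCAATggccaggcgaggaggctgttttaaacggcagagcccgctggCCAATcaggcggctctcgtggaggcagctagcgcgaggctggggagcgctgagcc
EZH2, chr7:148884292-148884541, minus strand: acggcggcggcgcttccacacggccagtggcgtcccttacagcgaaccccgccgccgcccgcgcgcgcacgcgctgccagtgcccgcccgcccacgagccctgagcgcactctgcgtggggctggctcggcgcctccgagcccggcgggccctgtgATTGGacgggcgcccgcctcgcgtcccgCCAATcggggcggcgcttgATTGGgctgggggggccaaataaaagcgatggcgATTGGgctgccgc
The box nearest to the start lies 133 bases before it in LMNB1, 23 bases in HMGB1, 50 bases in HMGB3 and 8 bases in EZH2. Neither the window of LBR nor that of GLB1 holds any of the 3 motifs. A window of LMNB2 and a second of HMGB1 hold TTTGAA, 240 bases before the start in each, and the E2F-like letters occur once, in an LMNA window, overlapping no other motif. EZH2, with the most boxes, was not called lower upon TMZ, and HMGB1, HMGB3 and LMNB1 fell in both clones. A match describes letters and is not evidence of a bound factor.

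Of the 18 tested proliferation markers, 18 were lower and none higher upon TMZ in Surv-GFP cells, and 13 were lower and 1 higher in SurvNESmut-GFP cells. Their median log2 fold change was -0.87 and -0.34, and the change was larger, that is less negative, in SurvNESmut-GFP cells for 16 of them, with differences between 0.031 and 0.88 over all 18. In comparison, 28.9% of all tested genes were lower and 30.1% higher in Surv-GFP cells, and 19.1% and 18.6% in SurvNESmut-GFP cells. A larger change in SurvNESmut-GFP cells was called for 16.6% of all tested genes. The clones also differed in the level of these markers. Without TMZ 14 of the 18 were higher and 2 lower in SurvNESmut-GFP cells, with a median of 0.46 (all tested genes: 34.7% and 29.4%). With TMZ all 18 were higher in SurvNESmut-GFP cells, with a median of 0.91 (all tested genes: 34.5% higher and 34.7% lower). TOP2A, a topoisomerase of dividing cells, had 591 and 646 CPM in untreated and 211 and 204 CPM in TMZ-exposed Surv-GFP cells, against 707 and 728 CPM and then 384 and 430 CPM in SurvNESmut-GFP cells. CCNB1, the mitotic cyclin B1, fell by 1.79 ± 0.062 (SE, adjusted p = 6.44e-13) and 1.53 ± 0.059 (SE, adjusted p = 1.40e-11) on the log2 scale in the same order. RRM2, the small subunit of ribonucleotide reductase, was the marker that rose in SurvNESmut-GFP cells, by 0.21 ± 0.053 (SE, adjusted p = 0.00445). These markers moved with LMNB1, LBR and the HMGB genes, and their part in the result was not tested. In bulk RNA, fewer cells of a type and less RNA per cell cannot be told apart.

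Among the 29 tested genes of the nuclear lamina and envelope, 4 of which are the lamins and LBR, 10 rose and 10 fell upon TMZ in Surv-GFP cells (all tested genes: 30.1% and 28.9%) and 3 rose and 11 fell in SurvNESmut-GFP cells (all tested genes: 18.6% and 19.1%). The medians were -0.019 and -0.014, and 1 gene instead of 3 rose without the untreated SurvNESmut-GFP library b or the TMZ-exposed library a. SYNE1, a nesprin that links the outer nuclear membrane to the cytoskeleton, had 50.3 and 48.1 CPM in untreated and 137 and 155 CPM in TMZ-exposed Surv-GFP cells, and 62.6 and 64.3 CPM against 93.9 and 83.4 CPM in SurvNESmut-GFP cells. It rose by 1.57 ± 0.068 (SE, adjusted p = 9.68e-12) and by 0.48 ± 0.069 (SE, adjusted p = 3.96e-05), and the difference was -1.08 ± 0.097 (SE, adjusted p = 3.45e-07). TMPO, which encodes the lamina-associated polypeptide 2 proteins, fell by 0.79 ± 0.051 (SE, adjusted p = 1.10e-09) in Surv-GFP and by 0.41 ± 0.050 (SE, adjusted p = 7.05e-06) in SurvNESmut-GFP cells. SUN2, an inner membrane partner of the nesprins, fell by 0.71 ± 0.061 (SE, adjusted p = 4.33e-08) and 0.82 ± 0.061 (SE, adjusted p = 2.64e-08), with a difference of -0.12 ± 0.086 (SE, adjusted p = 0.306). EMD, the gene of the LMNA-binding protein emerin, rose by 0.48 ± 0.056 (SE, adjusted p = 1.87e-06) in Surv-GFP cells and fell by 0.17 ± 0.057 (SE, adjusted p = 0.0278) in SurvNESmut-GFP cells, the same directions as LMNA.

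The high mobility group family had 14 tested genes, of which 3 rose and 10 fell in Surv-GFP cells (all tested genes: 30.1% and 28.9%) and 1 rose and 9 fell in SurvNESmut-GFP cells (all tested genes: 18.6% and 19.1%), with medians of -0.40 and -0.31. The 3 HMGB genes were among those that fell. HMGA2, an architectural protein of embryonic and tumor cells that also accumulates in senescent heterochromatin, had 13.9 and 14.7 CPM in untreated and 59.2 and 56.8 CPM in TMZ-exposed Surv-GFP cells. SurvNESmut-GFP libraries had 70.5 and 69.2 CPM without and 87.6 and 79.2 CPM with TMZ, so that untreated Surv-GFP cells stood apart at the low end. HMGA2 rose by 2.02 ± 0.076 (SE, adjusted p = 1.44e-12) and by 0.26 ± 0.060 (SE, adjusted p = 0.00286), and the difference was -1.77 ± 0.097 (SE, adjusted p = 1.52e-09). HMGA1 rose by 0.65 ± 0.053 (SE, adjusted p = 2.50e-08) in Surv-GFP cells and had a log2 fold change of 0.011 ± 0.053 (SE, adjusted p = 0.896) in SurvNESmut-GFP cells. HMGN3, a nucleosome-binding member of the family, fell by 0.92 ± 0.073 (SE, adjusted p = 1.81e-08) and 0.58 ± 0.071 (SE, adjusted p = 8.33e-06).

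Polycomb repressive complex 2 was represented by 12 tested genes including EZH2. In Surv-GFP cells 4 rose and 3 fell (all tested genes: 30.1% and 28.9%), and in SurvNESmut-GFP cells 1 rose and 5 fell (all tested genes: 18.6% and 19.1%), with medians of 0.042 and -0.066. The 4 that rose were 1 with DESeq2 in place of edgeR. Both the 4 that rose and the 5 that fell were also fewer when some single libraries were left out. PHF1 and PHF19 are alternative subunits that direct the complex to chromatin. PHF1 rose by 0.99 ± 0.056 (SE, adjusted p = 2.46e-10) and 0.25 ± 0.056 (SE, adjusted p = 0.00218), and PHF19 fell by 0.88 ± 0.053 (SE, adjusted p = 5.69e-10) and 0.72 ± 0.052 (SE, adjusted p = 2.11e-08). RBBP4, a histone-binding subunit, fell by 0.45 ± 0.049 (SE, adjusted p = 6.43e-07) and 0.28 ± 0.048 (SE, adjusted p = 0.000216). Of the 2 demethylases that remove the mark EZH2 sets, KDM6B had 34.0 and 32.9 CPM in untreated and 109 and 111 CPM in TMZ-exposed Surv-GFP cells, against 33.1 and 33.9 CPM and then 35.9 and 35.4 CPM in SurvNESmut-GFP cells. The TMZ-exposed Surv-GFP libraries were the only high ones. KDM6B rose by 1.71 ± 0.056 (SE, adjusted p = 3.14e-13) in Surv-GFP cells and had a log2 fold change of 0.091 ± 0.063 (SE, adjusted p = 0.279) in SurvNESmut-GFP cells, a difference of -1.62 ± 0.085 (SE, adjusted p = 8.63e-10).

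GLB1 is 1 of 27 tested genes of lysosomal glycosidases and their partners. In Surv-GFP cells 6 of them rose and 10 fell (all tested genes: 30.1% and 28.9%), and in SurvNESmut-GFP cells 9 rose and 2 fell (all tested genes: 18.6% and 19.1%), with medians of -0.030 and 0.11. Without the untreated SurvNESmut-GFP library b 3 rose in that clone, and without the TMZ-exposed Surv-GFP library b 3 rose in the other. NEU1, a sialidase that forms a complex with β-galactosidase, rose by 0.58 ± 0.057 (SE, adjusted p = 1.97e-07) in Surv-GFP cells and had a log2 fold change of 0.063 ± 0.062 (SE, adjusted p = 0.453) in SurvNESmut-GFP cells. AGA, an enzyme of glycoprotein breakdown, rose by 0.73 ± 0.055 (SE, adjusted p = 9.16e-09) and 0.34 ± 0.062 (SE, adjusted p = 0.000421). GM2A, the activator of ganglioside breakdown, fell by 0.70 ± 0.076 (SE, adjusted p = 7.06e-07) in Surv-GFP cells and had a value of 0.094 ± 0.076 (SE, adjusted p = 0.36) in SurvNESmut-GFP cells, a difference of 0.79 ± 0.11 (SE, adjusted p = 2.80e-05). Its direction between clones was that of GLB1.

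**Figure D4:**
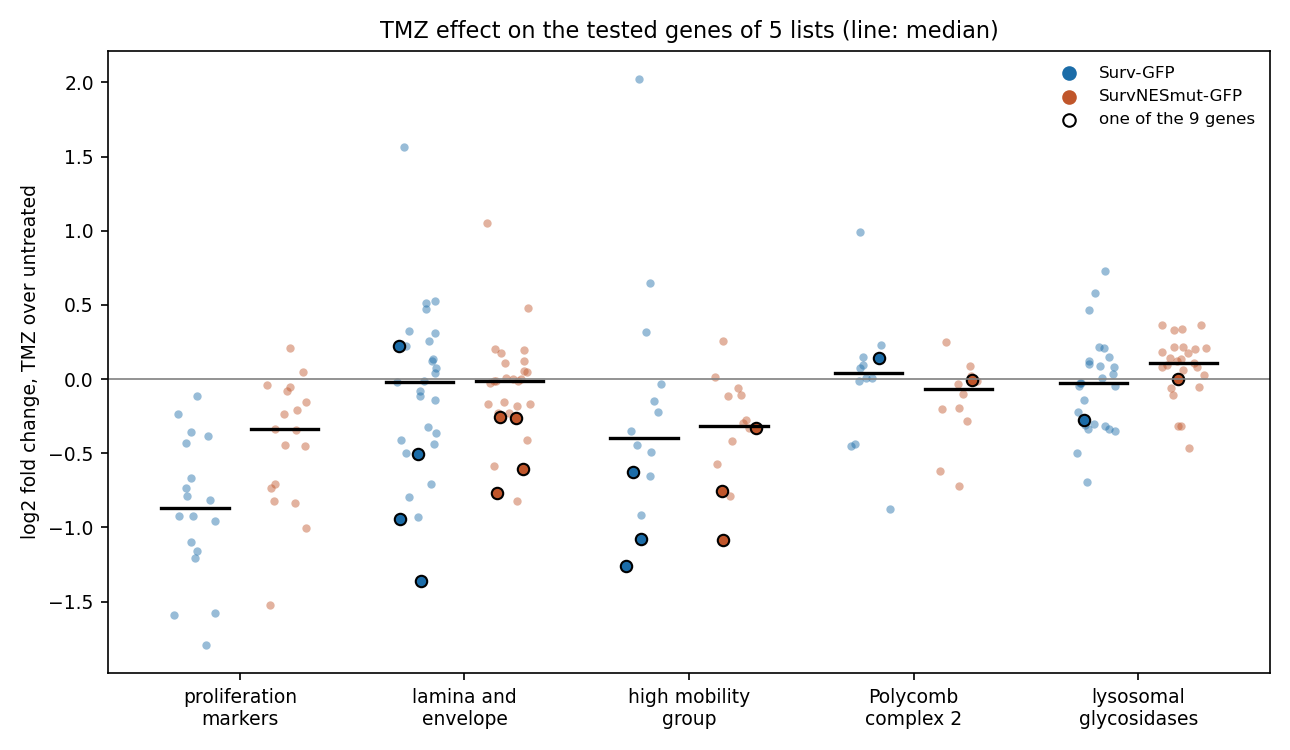
Log2 fold change upon TMZ (vertical axis, TMZ over untreated) of each tested gene of 5 lists in Surv-GFP and SurvNESmut-GFP cells, with a line at each median and a black outline around those of the 9 genes that belong to a list. All 18 proliferation markers lie below 0 in Surv-GFP cells, whereas the envelope genes spread to both sides, from -1.36 for LMNB1 to 1.57 for SYNE1.

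The list of markers that are usually raised in senescence held 20 tested genes, GLB1 among them, of which 14 rose and 5 fell in Surv-GFP cells (all tested genes: 30.1% and 28.9%) and 9 rose and 5 fell in SurvNESmut-GFP cells (all tested genes: 18.6% and 19.1%). The medians were 0.55 and 0.14. The TMZ effect was smaller in SurvNESmut-GFP cells for 12 of the 20 genes and larger for 3 (all tested genes: 20.2% and 16.6%). CDKN1A, the cell cycle inhibitor downstream of p53, had 86.6 and 77.3 CPM in untreated and 908 and 975 CPM in TMZ-exposed Surv-GFP cells, and 117 and 119 CPM against 429 and 492 CPM in SurvNESmut-GFP cells. It rose by 3.52 ± 0.073 (SE, adjusted p = 1.02e-15) and 1.96 ± 0.069 (SE, adjusted p = 4.23e-12). GDF15, a stress-induced secreted cytokine, rose by 6.53 ± 0.12 (SE, adjusted p = 3.38e-16) and 2.67 ± 0.099 (SE, adjusted p = 8.62e-12). PTPRJ, a receptor phosphatase, was among the genes of the list that fell, by 0.66 ± 0.059 (SE, adjusted p = 6.54e-08) and 0.44 ± 0.062 (SE, adjusted p = 3.47e-05). IGFBP5, also on the list, fell more, with log2 fold changes of -1.88 ± 0.22 (SE, adjusted p = 1.41e-06) and -3.12 ± 0.22 (SE, adjusted p = 1.79e-08). Its TMZ-exposed SurvNESmut-GFP libraries were far apart, at 73.2 and 169 CPM. CDKN2D had -0.58 ± 0.11 (SE, adjusted p = 0.000194) and -0.62 ± 0.10 (SE, adjusted p = 0.000132). CDKN2A and CDKN2B, the cell cycle inhibitor genes most used as senescence markers, had 0 counts in each library, which by counting error alone allows up to 3 counts.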

How the data were processed

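The authors had total RNA sequenced as 8 Illumina libraries. The deposited counts are whole-number read counts per gene symbol, not normalized, and 2 rows that name no gene, which held 11.2% to 14.3% (no feature) and 1.19% to 1.28% (ambiguous) of the reads, were left out. The submitters' processing notes name STAR 2.5.0b, Cufflinks 2.2.1 and edgeR without a role. For the counting program, annotation, strand setting and genome build, nothing is given in the sources used here. The authors' 5 comparison tables hold log fold changes, average log2 CPM, F, p and FDR values and were not used.

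Libraries were grouped by their titles. Counts were fitted in R 4.3.3 with edgeR 4.0.16 (TMM, its group-wise low-count filter, quasi-likelihood F test), with 4 group means over all 8 libraries, and the fit was tested on simulated data first. The common biological coefficient of variation was 4.09%. Alternatives were DESeq2 1.42.0, its size factors or plain library sizes, no filter or 1 CPM in 2 libraries, the newer quasi-likelihood method, a robust prior, a replicate block by letter, a fit of the compared libraries alone, and leaving out each library. The 9 genes and the 10 gene lists were chosen with earlier results of these data known. All 9 genes are named, and of each list up to 3 genes with the smallest p per direction and clone could be named. EZH1, TMPPE, BIRC5, CDKN2A, CDKN2B and some cell type markers were named as background, and 1 marker list is not reported here. Symbols written for a list but missing from the file or too low to test are left out of its count.

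Promoter sequences are from RefSeq (GRCh38.p14), and exon lengths, overlaps and pseudogene names are from GENCODE v29, which may differ from the annotation behind the counts.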

Additional observations from a re-analysis of the deposited data

Results flagged for a closer look

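For 7 of the 9 genes the TMZ effect differed between the clones by the interaction term of edgeR's quasi-likelihood F test, given as the log2 fold change in SurvNESmut-GFP minus that in Surv-GFP cells. The difference was 0.60 for LMNB1, 0.24 for LMNB2, -0.48 for LMNA, 0.33 for LBR, 0.30 for HMGB1, 0.33 for HMGB2 and 0.28 for GLB1. In LMNA the effect changed sign between the clones, and in the other 6 genes the fall in SurvNESmut-GFP cells was smaller or not called. By the same test 16.6% of all tested genes had a larger and 20.2% a smaller value in SurvNESmut-GFP cells. The calls of GLB1 and LMNB2 rested on single libraries. Without the untreated Surv-GFP library a the difference of GLB1 was 0.22, and without library b that of LMNB2 was 0.20.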

How the results depend on the processing

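Across the alternatives of the normalization, filter, tool and libraries, the falls of LMNB1, LMNB2, LBR, HMGB1, HMGB2 and HMGB3 upon TMZ kept their direction and call in both clones, as did those of GLB1 in Surv-GFP and LMNA in SurvNESmut-GFP cells and the rise of LMNA in Surv-GFP cells. With DESeq2's size factors, library size alone, no filter, the 1 CPM filter, DESeq2 or the replicate block, 1 of the 9 genes was higher in Surv-GFP cells instead of 2, and 1 to 2 were higher when single libraries were left out. HMGB2 made the count of genes lower in untreated SurvNESmut-GFP cells 1 instead of 0 with the first 5 of these, the robust prior or only the libraries compared, and 0 to 1 without single libraries. With TMZ, the count of lower genes was 0 instead of 1 with the replicate block or only the libraries compared, and 0 to 1 without single libraries. The cause was not tested. The values that changed sign were not called, or carried no test, in either setting. GLB1 in SurvNESmut-GFP cells was -0.0021 with DESeq2's size factors, -0.0011 without a filter and -0.0020 with DESeq2, and EZH2 was 0.033 with library size alone and 0.00086 with the 1 CPM filter. Without single libraries GLB1 ranged from -0.025 to 0.039 and EZH2 from -0.033 to 0.029. The clone difference of untreated GLB1 was -0.0061 with library size alone and -0.0034 to 0.11 without single libraries, and that of TMZ-exposed EZH2 was -0.034 to 0.031. Without single libraries HMGA1 (-0.049 to 0.074), NEU1 (-0.012 to 0.14) and GM2A (-0.011 to 0.20) changed sign in SurvNESmut-GFP cells, as did the log2 change of the LMNB2 to LMNA ratio there (-0.052 to 0.032) and of the EZH2 to EZH1 ratio in Surv-GFP cells (-0.0042 to 0.097). The alternatives for the list counts were added after seeing the data, and 60 list counts moved by over 1.5 times while 940 did not. The letters are not stated to pair the libraries, and the a minus b differences of the groups correlated at -0.208 to 0.160 over 10076 genes. With the letter as a block, 4186 genes were higher and 4017 lower upon TMZ in Surv-GFP cells, against 4271 and 4100 without it. With 2 libraries per group, small changes such as those of EZH2 cannot be settled.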

Other observations

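Over all tested genes, 30.1% were higher and 28.9% lower upon TMZ in Surv-GFP cells, and 18.6% and 19.1% in SurvNESmut-GFP cells. The 20 tested genes of Polycomb repressive complex 1, which binds the mark that EZH2 sets, showed 5 higher and 8 lower genes upon TMZ in Surv-GFP cells and 4 lower genes with 16 not called in SurvNESmut-GFP cells, with median log2 fold changes of -0.0062 and -0.086. CBX2, a subunit that reads this mark, fell by 0.98 ± 0.059 (SE, adjusted p = 5.18e-10) in Surv-GFP cells and had -0.095 ± 0.059 (SE, adjusted p = 0.223) in SurvNESmut-GFP cells. Of the 18 tested genes of senescence heterochromatin, LMNB1 and LBR included, 4 rose and 9 fell in Surv-GFP and 3 rose and 8 fell in SurvNESmut-GFP cells, with medians of -0.16 and -0.038. Without the untreated SurvNESmut-GFP library b 5 fell in that clone, and without its untreated library a 1 rose. ASF1A, a histone chaperone, rose by 0.56 ± 0.066 (SE, adjusted p = 1.78e-06) in Surv-GFP cells and fell by 0.25 ± 0.069 (SE, adjusted p = 0.00869) in SurvNESmut-GFP cells. Of the 8 tested genes of HMGB1 receptors and release, 2 rose and 5 fell in Surv-GFP and 3 fell with 5 not called in SurvNESmut-GFP cells, with medians of -0.34 and -0.12. The 3 that fell were 1 with DESeq2 in place of edgeR, and were also fewer when some single SurvNESmut-GFP libraries were left out. PARP1, an enzyme that modifies HMGB1 after DNA damage, fell by 0.83 ± 0.047 (SE, adjusted p = 2.33e-10) in Surv-GFP cells. There TLR4, a receptor of extracellular HMGB1, rose by 0.53 ± 0.067 (SE, adjusted p = 4.10e-06). Neither was called in SurvNESmut-GFP cells, with -0.033 ± 0.046 (SE, adjusted p = 0.61) for PARP1 and 0.15 ± 0.063 (SE, adjusted p = 0.0747) for TLR4.

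Over the 8 libraries, the log2 CPM of LMNB1 and LBR correlated with r = 0.988 and that of LMNB1 and HMGB1 with r = 0.992, while LMNB1 and LMNA had r = 0.128 and LMNB1 and EZH2 r = -0.058. These values describe 4 groups of 2 libraries that share their clone and exposure. Of the 10067 genes compared, those most like LMNB1 were ITPRIPL2 (r = 0.998) and GTSE1 (r = 0.997), those most like LBR were CDCA2 (r = 0.998) and MCM5 (r = 0.998), and those most like HMGB2 were CBX3 (r = 0.997) and PPIA (r = 0.995). LMNB2 was most like HDAC1 (r = 0.999) and PLK4 (r = 0.998), HMGB1 most like ATP2B4 (r = 0.998) and NUSAP1 (r = 0.996), HMGB3 most like SESTD1 (r = 0.996) and HNRNPK (r = 0.995), and LMNA most like JMJD6 (r = 0.984) and STRAP (r = 0.968). GLB1 was most like TP73 (r = 0.984) and GNPTAB (r = 0.982), and EZH2 most like C3orf17 (r = 0.945) and CCDC58 (r = 0.941). Most of the named genes were not alone, since 307 genes had r above 0.95 with LMNB1, 503 with LMNB2, 359 with LBR and 334 with HMGB1. For HMGB2 there were 141, for HMGB3 200, for GLB1 68, for LMNA 12 and for EZH2 0.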
